A study of Mus musculus with 55 samples.

Results

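The genes of fatty acid oxidation and ketogenesis were followed across the livers of Collaborative Cross mice. The list held 40 genes, chosen by symbol from the pathway, and each matched exactly 1 of the 37620 genes in the files. By their known location, 10 encode peroxisomal proteins, 20 encode mitochondrial proteins and 10 act in the cytosol, at other membranes or at several sites. The Collaborative Cross is a set of recombinant inbred lines bred from the same inbred founder strains, so that mice of a line are close to identical in genotype and lines differ widely. Whole liver from 55 untreated male mice of 29 lines, on chow and tap water at will, was sequenced as polyA RNA. A single mouse stood for 8 lines, while 16 lines had 2 mice and 5 had 3. The mice were 8 to 11.9 weeks old and weighed 12.8 to 38 g. There were no control and treated groups: the comparison was among lines, and among mice of a line.

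Fatty acids enter the hepatocyte, are bound by a fatty acid binding protein and are activated to acyl-CoA esters. Very long and branched chains are shortened in the peroxisome, and the products leave as carnitine esters; long and medium chains enter the mitochondrion through the carnitine shuttle and are shortened there by a spiral of dehydrogenation, hydration, a second dehydrogenation and thiolysis. In liver the acetyl-CoA released is turned largely into ketone bodies, which feed other tissues during fasting. Many genes of both organelles are known targets of the nuclear receptor PPARα, which senses fatty acids.

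The libraries held 20.5 to 33.95 M fragments assigned to genes. Hepatocyte markers were high in all mice, with a summed FPKM (fragments per kilobase of transcript and per M fragments) of 14930 to 64263 over 6 genes. Other marker lists stood apart in a few livers. These were IL-3912 mouse 1 (4 skeletal muscle genes, 947 FPKM in sum against a median of 0.03), IL-785 mice 1 and 2 (39.4 and 36.99 in the same sum), IL-1052 mouse 2 (4 adipocyte genes, 34.8 against 0.06) and the mice of IL-2156. Mouse 2 of IL-2156 had the highest sums of the 6 Kupffer cell genes (279, median 58.98), the 5 bile duct genes (208, median 27.5) and the 5 leukocyte genes (129, median 5.23). Mouse 3 of IL-2156 had the lowest hepatocyte sum. The next highest Kupffer sum was 210, in the mouse of IL-557. The highest sum of the 5 red blood cell genes was also that of IL-2156 mouse 2 (4528, median 1363). It did not stand apart, as the mouse of IL-1452 had 4174. Sums of the 5 sinusoidal endothelium genes (10.9 to 69.9) and the 5 stellate cell genes (30.1 to 182) spread without a liver far from the rest. In bulk tissue, fewer cells of a type and less RNA per cell cannot be told apart. The mice of IL-1052 and IL-2750 are intermixed by their overall expression, so results were also computed without both lines. The labels name no batch, and do not say whether line mates were litter mates. The p-values among lines set the lines against the spread between line mates and reach no further than these mice. Mice of a line were of the same age, except in IL-785 (8.1, 8.3 and 9 weeks). Differences among lines can thus hold differences of age or of a shared litter, which cannot be told apart from the line.

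Most of the 40 genes differed among lines. In edgeR's quasi-likelihood F test over the 21 lines with at least 2 mice (47 mice, p-values adjusted by Benjamini-Hochberg over all genes tested), 36 of 40 passed an adjusted p of 0.05, beside 88.5% of all 15285 genes tested. All 10 peroxisomal genes passed, as did 17 of 20 mitochondrial genes and 9 of the other 10. The genes that did not pass were Acadvl, the very-long-chain acyl-CoA dehydrogenase (adjusted p = 0.0643), Decr1, a mitochondrial dienoyl-CoA reductase (0.099), Cpt2, which completes the carnitine shuttle inside the mitochondrion (0.114), and Slc27a2, a very-long-chain acyl-CoA synthetase and transporter (0.132, all edgeR). The calls stayed at 36 without IL-1052 and IL-2750. DESeq2's likelihood ratio test called 39, with Cpt2 the exception, beside 88.8% of all genes.

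How far each gene followed the line was described by the intraclass correlation, the share of the variance of a trait that lies between lines: it is 1 when line mates are equal and near 0 when they differ as much as mice of different lines. The median over the 40 genes was 0.536, against 0.592 over 5949 total-expression traits that passed the study's rule on levels, and 23 of 40 were above 0.5 against 72.2% of those traits. Without that rule, the median was 0.497 over 16655 genes, of which 49.5% were above 0.5. These had an FPKM above 0 and still differed among mice after the rounding to bins. Genes constant after the rounding have no intraclass correlation and were left out. The list thus lay below the traits kept for many levels and above this wider set. The peroxisomal genes had a median of 0.658 with 7 of 10 above 0.5, the mitochondrial genes 0.49 with 9 of 20, and the remaining genes 0.601 with 7 of 10. The groups differed also in how far apart the lines stood. The fold between the top and the bottom line mean had a median of 3.48 in peroxisomal genes and 1.98 in mitochondrial genes, beside 2.59 over all kept traits. The SD of line means of log2(FPKM + 1) had a median of 0.46 in peroxisomal genes, 0.25 in mitochondrial genes and 0.30 over all kept traits, while the SD between line mates was 0.27, 0.20 and 0.19. These are descriptions of the list, without a test between the compartments. The lines named below for a gene or isoform were mostly picked as its lowest and highest on these same values. That their mice did not overlap follows largely from this choice and is no test.

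**Figure D1:**
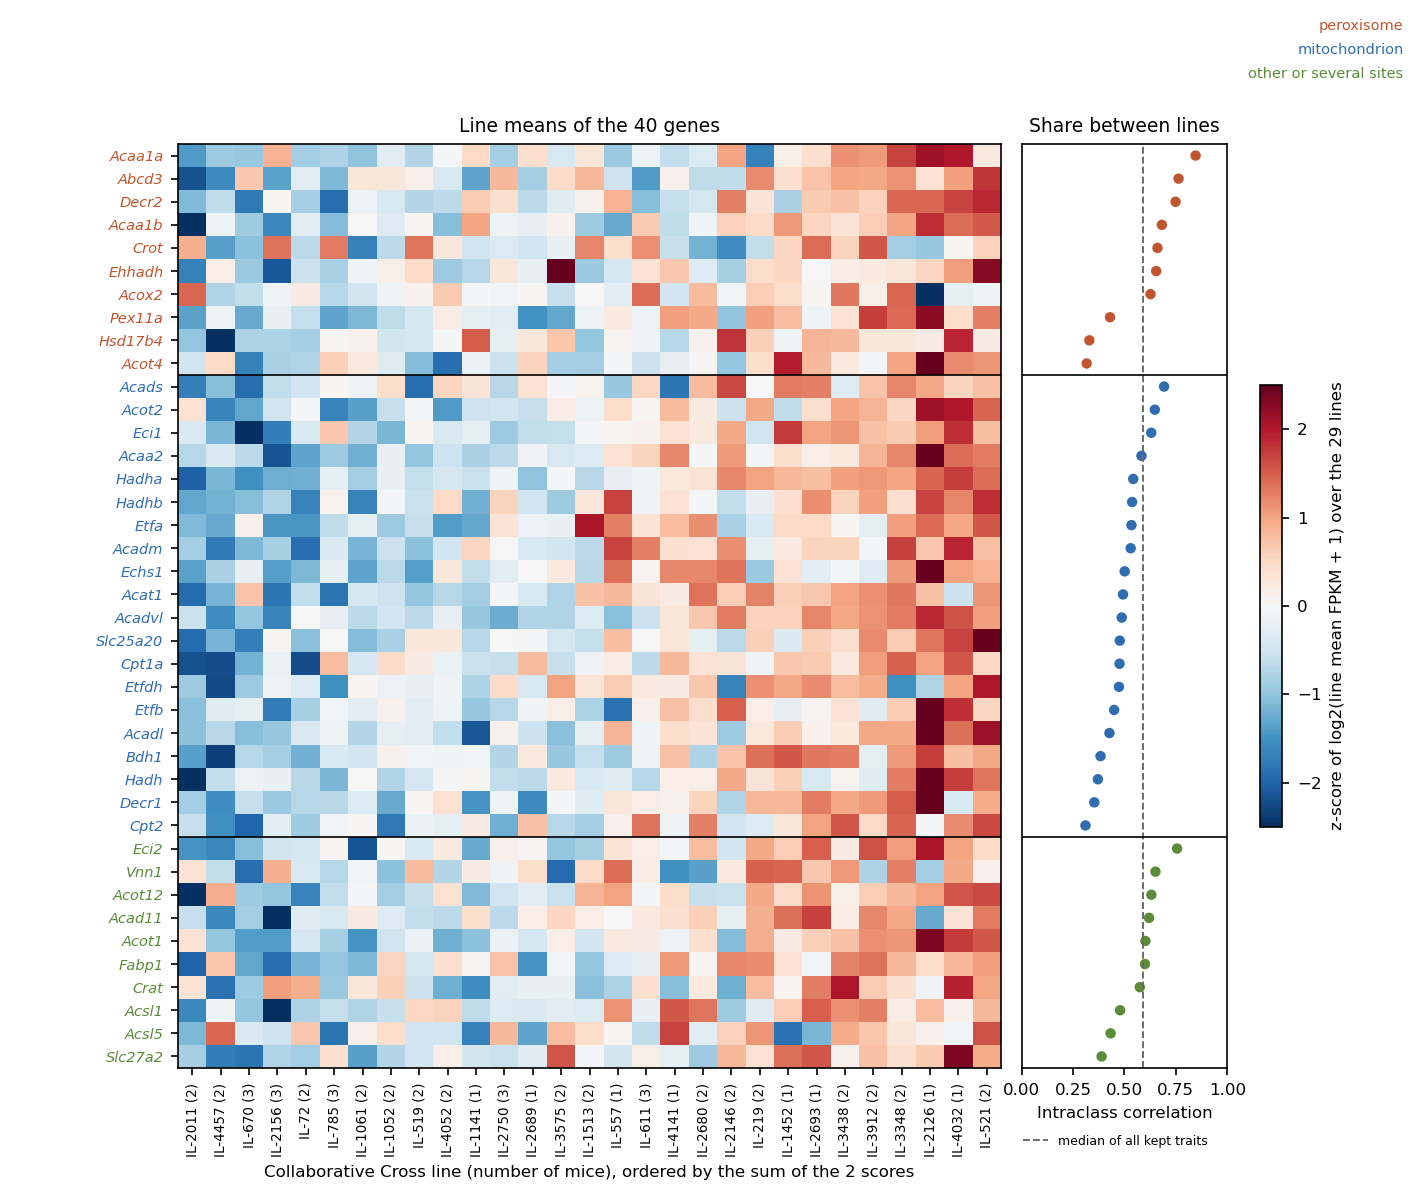
Line means of the 40 genes in the 29 lines (columns, with the number of mice), as z-scores of log2(line mean FPKM + 1) for each gene, beside the intraclass correlation of each gene on van der Waerden scores (points) and its median over 5949 kept traits (dashed line, 0.592). Rows are grouped as peroxisomal (red names), mitochondrial (blue) and other or several sites (green); most rows run from low in IL-2011 to high in IL-521, while Crot and Acox2 do not.

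Among the enzymes of the peroxisomal spiral, Acaa1a, a 3-ketoacyl-CoA thiolase that catalyses the last step, followed the line most closely, with an intraclass correlation of 0.846, the highest of the 40 genes (adjusted p among lines = 3.02e-09, edgeR). Its FPKM was 49.3 and 46.6 in the mice of IL-219, 47.8 and 56.6 in IL-2011, 121 and 150 in IL-3348, 149 in the mouse of IL-4032 and 155 in the mouse of IL-2126. The 4 mice of the first 2 lines all lay below every mouse of the last 3, and the top line mean was 3.23 times the bottom one. Decr2, the peroxisomal 2,4-dienoyl-CoA reductase for unsaturated chains, had an intraclass correlation of 0.749. Its values were 31.5, 43.3 and 33.7 FPKM in IL-785 and 39.7, 39.9 and 34.2 in IL-670, against 127 and 108 in IL-521 and 96.5 and 108 in IL-3348. The low and the high lines did not overlap. Ehhadh, the bifunctional enzyme of the classic, inducible branch, ranged from a mean of 36.1 FPKM in IL-2156 to 223 in IL-3575, a 6.17-fold range. Hsd17b4, the bifunctional protein that also handles branched chains, varied least of the peroxisomal genes, with a ratio of 1.93 and an intraclass correlation of 0.33.

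Acox2, the oxidase that starts the shortening of branched chains and bile acid precursors, had a mean of 112 FPKM in IL-2011, where most of the other genes were low, and of 17.3 FPKM in the 1 mouse of IL-2126, where many of them were at their highest. Crot, which turns medium-chain products into carnitine esters for export, ranged from 78.6 FPKM in IL-1061 to 292 in IL-3912. Abcd3, an ABC transporter that carries acyl-CoA into the peroxisome, had an intraclass correlation of 0.763. Abcd3 stood at 66.6 and 97.1 FPKM in IL-2011 and at 242 and 215 in IL-521, with no overlap. Pex11a, which promotes the division of peroxisomes, ran from 17 FPKM in the mouse of IL-2689 to 45.3 in that of IL-2126. The thioesterase Acot4, which splits acyl-CoA into acid and CoA, was the peroxisomal gene least tied to the line, with an intraclass correlation of 0.316. Its lowest line was IL-4052 (2.07 and 3.05 FPKM) and its highest mouse was that of IL-2126 (19.5), while IL-3348 held 12.8 and 7.34.

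In the mitochondrial spiral, Acads, the short-chain acyl-CoA dehydrogenase, had the highest intraclass correlation, 0.693. The mice of IL-519 had 56.2 and 54 FPKM and those of IL-670 had 50.1, 55.9 and 59.6, against 101 and 97.3 in IL-2146 and 88.6 and 96.4 in IL-3348. The low and the high lines were apart, yet IL-2011 spanned 45.2 to 68.2 within 1 line. These values are FPKM: in the line contrasts below, on counts normalized otherwise, no listed gene was called lower in IL-519. Eci1, the isomerase that moves double bonds of unsaturated chains into place, had an intraclass correlation of 0.63. Eci1 was 47, 46.4 and 45.4 FPKM in IL-670, the lowest line, and 107 and 107 in IL-3438. In IL-2156 it was 80.2, 47.1 and 41.4. Acadm, Acadl and Acadvl, the dehydrogenases for medium, long and very long chains, had top line means that were 1.96, 2.77 and 1.53 times the bottom ones.

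**Figure D2:**
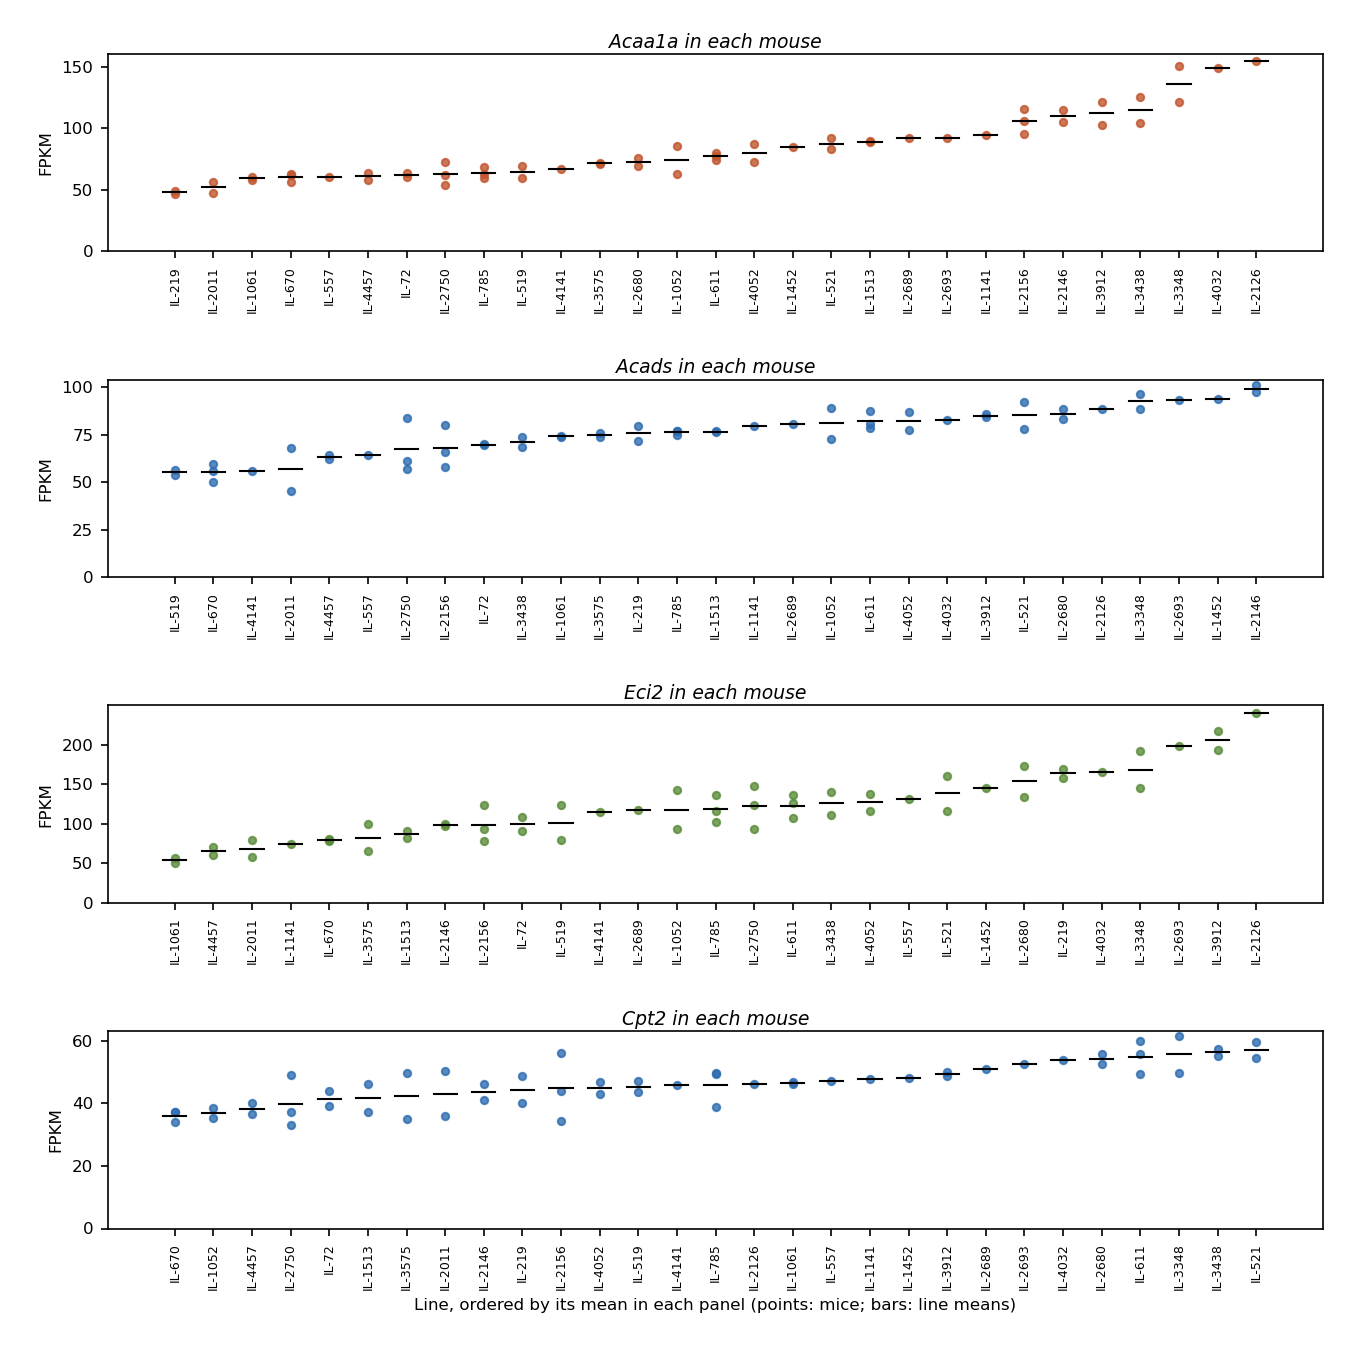
FPKM of Acaa1a, Acads, Eci2 and Cpt2 in each of the 55 mice (points), by line and ordered by the line mean (bars) in each panel, all from 0. Line mates lie close together for Acaa1a (intraclass correlation 0.846), while for Cpt2 (0.311) the spread within several lines is as wide as that among line means.

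Of the carnitine shuttle, Cpt1a, the malonyl-CoA-sensitive entry step, ranged from 44.9 FPKM in IL-72 to 104 in the mouse of IL-4032. The carrier Slc25a20 ranged from 30.1 in IL-2011 to 72.6 in IL-521. Cpt2 had the lowest intraclass correlation of the list, 0.311. Cpt2 was 34, 37.1 and 37.2 FPKM in IL-670 and 59.7 and 54.4 in IL-521, its lowest and highest lines, which did not overlap. In IL-2750, the mice had 49.1, 33 and 37.3, and the difference among lines did not pass the test. The electron transfer flavoprotein, which takes electrons from the dehydrogenases, varied little: its subunits Etfa and Etfb had ratios of 1.56 and 1.83, and Etfdh, which passes the electrons on to ubiquinone, 2.0. Of the ketone body genes, Bdh1, which makes 3-hydroxybutyrate, ran from 87.6 FPKM in IL-4457 to 179 in the mouse of IL-2126. Acat1, the acetoacetyl-CoA thiolase, ran from 78.9 in IL-2011 to 148 in IL-2680. Their intraclass correlations were 0.384 and 0.493.

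Of the genes outside both groups, Eci2, an isomerase placed in peroxisomes and mitochondria, followed the line most (0.756). Eci2 was 56.1 and 50.9 FPKM in IL-1061 and 59.9 and 70.3 in IL-4457, against 193 and 217 in IL-3912 and 240 in the mouse of IL-2126. The low and the high lines did not overlap. Vnn1, a pantetheinase that splits a breakdown product of CoA and is a known PPARα target, had the widest range of all 40 genes. Vnn1 was 0.64 and 0.19 FPKM in IL-3575 and 0.39, 0.5 and 0.5 in IL-670, but 26.8 and 22.8 in IL-219. The line means differed 59.8-fold at an intraclass correlation of 0.651. Acot12, an acetyl-CoA thioesterase of the cytosol, had 16.6 and 23 FPKM in IL-2011 and 53.6 and 47.5 in IL-521 (intraclass correlation 0.631), again without overlap. Slc27a2 was the least tied to the line (0.389), with 310, 309 and 265 FPKM in IL-670, 552 and 406 in IL-521, and 614 in the mouse of IL-4032. The activating enzymes Acsl1 and Acsl5 ran over 2.62-fold and 2.26-fold, and Crat, the acetyltransferase that buffers acetyl-CoA with carnitine, over 6.38-fold.

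Fabp1, the liver fatty acid binding protein, was the most abundant of the list, with a median of 7978 FPKM. Its line means ranged from 4426 in IL-2011 to 11776 in IL-3912 (intraclass correlation 0.6). Its promoter is shown because, among the 34 listed genes with a promoter window in the RefSeq table (250 bases before to 50 after the start, build GRCm38.p6), it was the 1 gene whose window held a direct repeat of AGGNCA with 1 base between the copies, the kind of element that PPARα is known to bind with its partner RXR. Both strands were searched, and the motif was in 0.381% of all 32851 windows. The motif, read here on the other strand, starts 67 bases before the annotated start and TATAAA 30 bases before it; both are in capitals. TATAAA was in 13.6% of all windows and, of the list, in those of Acot4 and Fabp1.
Fabp1 chr6:71199629-71199928 (+): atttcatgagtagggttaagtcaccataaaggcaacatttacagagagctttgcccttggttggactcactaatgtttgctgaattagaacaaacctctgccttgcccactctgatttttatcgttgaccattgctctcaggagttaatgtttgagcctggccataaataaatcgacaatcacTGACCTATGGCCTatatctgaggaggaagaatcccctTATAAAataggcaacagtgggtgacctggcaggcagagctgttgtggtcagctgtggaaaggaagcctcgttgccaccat
A match is a description of letters and not of binding, which was not measured here, and windows without the motif say nothing of sites elsewhere. GGGCGG was in windows of 24 of the 34 genes and in 35.7% of all windows, and CCAAT in 17 and in 37.4%. For every motif a listed gene counts when any of its windows holds it, and the 34 genes have 38 windows. The share of all windows is by window, so the measures are not alike.

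Hadha and Hadhb encode the 2 subunits of the trifunctional protein, which performs the last 3 reactions of the spiral on long chains. They lie head to head on chromosome 5, and in RefSeq their starts are 273 bases apart. Their promoter windows share 228 bases; that of Hadhb is given because it holds most of the stretch between the genes, with GGGCGG on either strand in capitals, none of it tied to a factor here.
Hadhb chr5:30155003-30155302 (+): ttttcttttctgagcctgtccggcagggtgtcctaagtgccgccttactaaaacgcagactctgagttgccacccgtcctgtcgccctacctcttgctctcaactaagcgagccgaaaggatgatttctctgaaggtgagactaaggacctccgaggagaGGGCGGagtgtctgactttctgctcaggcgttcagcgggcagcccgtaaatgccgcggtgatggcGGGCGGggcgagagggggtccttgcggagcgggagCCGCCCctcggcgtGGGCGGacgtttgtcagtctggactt
Hadha was 49.5 and 79.5 FPKM in IL-2011 and 122 and 101 in IL-521. Hadhb was 62.5 and 85.9 in IL-2011 and 152 and 115 in IL-521. In both genes the mice of IL-2011 lay below those of IL-521, and mouse 1 of each line was the more extreme. Over the 29 line means of log2(FPKM + 1) the genes correlated with r = 0.727 (rho = 0.722), and over the deviations of 47 mice from their line mean with r = 0.807 (rho = 0.769). Etfa and Etfb, subunits of 1 protein on different chromosomes, correlated with r = 0.365 between lines and 0.584 within lines. Both values lay below the medians over all 190 pairs of mitochondrial genes, 0.58 between lines and 0.67 within lines. The part of the gene arrangement in these correlations was not tested.

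Several genes have close copies, among which the quantification had to share out fragments, so that their separate levels are uncertain. The thiolases Acaa1a and Acaa1b, both on chromosome 9, correlated with r = 0.551 between lines. Acaa1b was 63.1 and 203 FPKM in IL-2011 and 544 and 585 in IL-521, far apart in the mice of IL-2011. On chromosome 12 lie Acot2, Acot1 and Acot4, thioesterases of the mitochondrion, cytosol and peroxisome. Acot1 was 2.36 and 1.81 FPKM in IL-1061, 25.9 and 15.6 in IL-521 and 34.8 in the mouse of IL-2126, with a median of 5.52 over all mice. Acot2 was low throughout, from 0.04 to 3.07 FPKM, and did not pass the study's rule on levels. Acot1 and Acot2 had the highest correlation of all pairs between lines (r = 0.903, rho = 0.883), and 0.839 within lines.

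Peroxisomal and mitochondrial genes moved together. A score was formed for each compartment as the mean z-score of log2(FPKM + 1) of its genes, over 10 and 20 genes. Between the 29 line means the scores correlated with r = 0.889 (rho = 0.856), and among the deviations of 47 mice from their line mean with r = 0.941 (rho = 0.923). Without the 2 lines or the 2 mice farthest from the median of the peroxisomal score, r was 0.859 and 0.923. All genes of a mouse share its library, so these values have no test. Single pairs gave lower values. Between lines, the median r was 0.28 over 45 pairs of peroxisomal genes, 0.58 over 190 pairs of mitochondrial genes and 0.48 over 200 pairs across the compartments, against 0.07 over all pairs of kept traits. Within lines the medians were 0.42, 0.67 and 0.57, against 0.12.

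**Figure D3:**
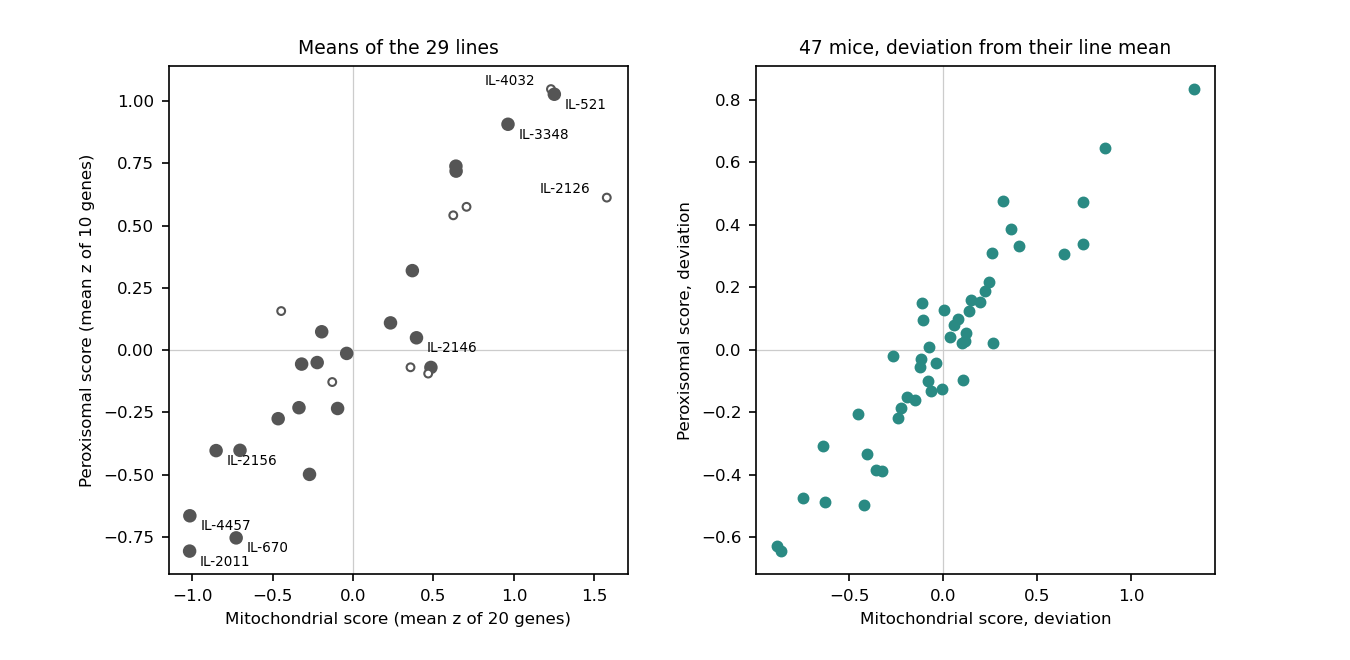
Peroxisomal score (mean z-score of 10 genes, y axis) against mitochondrial score (mean z-score of 20 genes, x axis), as means of the 29 lines (left; open points are lines of 1 mouse) and as deviations of 47 mice from their line mean (right). Points follow a rising band in both panels (r = 0.889 and 0.941); IL-2126 lies right of it, with 1.58 on the mitochondrial and 0.612 on the peroxisomal score.

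The mice of IL-521 had peroxisomal scores of 1.25 and 0.809 and mitochondrial scores of 1.49 and 1.01. Those of IL-2011 had -1.45 and -0.163, and -1.88 and -0.153. IL-521 was high in both mice, while IL-2011 owed its place at the bottom of both scores mostly to mouse 1. Summed FPKM of the 10 peroxisomal genes was 0.432 times that of the 20 mitochondrial genes in the median line, from 0.345 in IL-4141 to 0.516 in IL-521. The share of fragments taken by the 20 most expressed genes of a mouse, 25% to 39.6%, moved with both scores: r was -0.546 (peroxisomal) and -0.634 (mitochondrial) between lines, and -0.506 and -0.486 within lines. The lowest share, 25%, was that of the mouse of IL-2126. With log2 values adjusted for that share and for depth, the scores still correlated at 0.837 between lines, and the median r across compartments was 0.36. The summed hepatocyte markers correlated with the scores at 0.316 and 0.463 between lines and at 0.499 and 0.519 within lines; their part in the shared variation was not tested.

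Not every gene followed the rest. Crot correlated with the other peroxisomal genes at r = -0.01 between lines but at 0.57 within lines, and Acsl5, a long-chain acyl-CoA synthetase, at 0.19 and 0.57. Acox2 stood at r = -0.19 between lines and 0.33 within lines. The sign for Acox2 rested on the 1 mouse of IL-2126: without that line r was 0.15, and over all lines rho was 0.12. For Crot and Acsl5, r without IL-2126 was 0.04 and 0.18. Hadha followed the other mitochondrial genes most closely, at 0.918 on both levels.

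Each of the 21 lines with at least 2 mice was then set against the mean of the other 20, on TMM-normalized counts. FPKM values and scores carry no such normalization, and some lines stood differently on them. IL-519 had scores of -0.056 (peroxisomal) and -0.319 (mitochondrial), but median log2 differences of 0.140 and 0.147 here. IL-1061 had scores of -0.276 and -0.465, but medians of 0.113 and 0.028. In IL-521 and IL-2011 both measures had the same sign. Over all contrasts, 62 of 840 tests of listed genes were called higher (7.38%, beside 10.9% of all genes) and 70 lower (8.33%, beside 7.18%). The calls were uneven. IL-521 had 12 genes higher and 0 lower, beside 10.1% and 6.71% of all genes. IL-2146 had 13 higher and 3 lower, beside 26.1% and 23.1%. IL-3348, IL-3438 and IL-3912 followed with 5 genes higher each, beside 6.03%, 5.23% and 9.84% of all genes, and with 2, 0 and 0 lower, beside 3.18%, 2.22% and 5.57%. At the other end, IL-2156 had 15 lower and 4 higher, beside 10.2% and 16.5% of all genes, IL-2011 had 14 lower and 1 higher, beside 8.16% and 12.3%, and IL-4457 had 12 lower and 0 higher, beside 18.4% and 20.9%. In IL-1052 and IL-4052 no listed gene was called in edgeR, beside 3.49% and 6.34% of all genes higher and 0.759% and 2.89% lower. IL-670 had 8 lower and 0 higher, beside 7.18% and 10.3%, and the other lines had at most 4 in a direction.

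**Figure D4:**
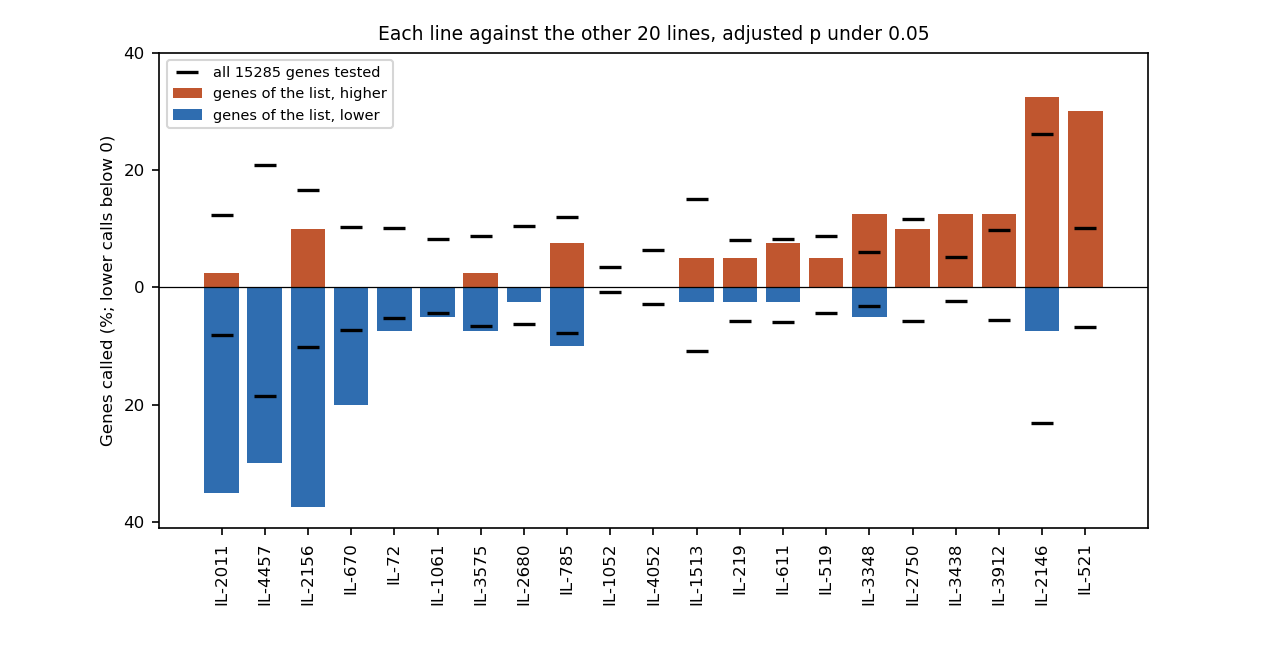
Share of the 40 genes called higher (red, above 0) or lower (blue, below 0) in each of 21 lines against the other 20, with the share of all 15285 genes called in the same direction (black marks). IL-521 has 12 genes higher and IL-2156 15 lower, beside 10.1% and 10.2% of all genes.

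In IL-521, Ehhadh was 2.35-fold higher than in the other lines (log2 difference 1.23, SE 0.19, adjusted p = 2.48e-05, edgeR). Acot1 was 3.47-fold higher and Acot2 2.78-fold, Decr2 1.82-fold, Acaa1b 1.77-fold, Slc25a20 1.65-fold and Acadl 1.59-fold; Abcd3, Acot12, Hadhb, Etfdh and Acad11, a dehydrogenase for long chains, were 1.27-fold to 1.52-fold higher. By compartment, 4 of 10 peroxisomal, 5 of 20 mitochondrial and 3 of the other 10 genes were called. In IL-2146, where 26.1% of all genes were called higher, the higher calls fell mostly in the mitochondrion, with 9 of 20 genes. Among them were Acads (1.38-fold), Eci1 (1.36-fold), Acadm (1.34-fold) and Echs1, the short-chain enoyl-CoA hydratase (1.25-fold). Crot (0.518-fold), Crat (0.565-fold) and Etfdh (0.779-fold) were lower. The list as a whole was hardly shifted in IL-2146: its median log2 difference was 0.0106, and 21 listed genes had a positive difference. The median was 0.246 in mitochondrial genes, -0.197 in peroxisomal genes and -0.0175 in the remaining genes.

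In IL-2011 the lower genes included Acaa1b (0.399-fold), Ehhadh (0.515-fold), Fabp1 (0.523-fold), Acot12 (0.528-fold), Abcd3 (0.544-fold) and Cpt1a (0.625-fold), while Acox2 was 1.49-fold higher. In IL-2156 the lower genes included Acot1 (0.366-fold), Ehhadh (0.441-fold), Acad11 (0.523-fold), Acsl1 (0.546-fold) and Fabp1 (0.561-fold), and 8 of 20 mitochondrial genes by less, while Vnn1 (3.09-fold), Crot (1.77-fold), Crat (1.57-fold) and Acaa1a (1.38-fold) were higher. In IL-4457 they included Acot2 (0.248-fold), Crat (0.437-fold), Crot (0.597-fold), Eci2 (0.604-fold) and Cpt1a (0.674-fold). In mice 1, 2 and 3 of IL-2156 the Kupffer sums were 63.6, 279 and 135 FPKM and the leukocyte sums 5.48, 129 and 66. Both were thus raised in mice 2 and 3 only, while the bile duct sum was raised in all 3 (125, 208 and 130 FPKM). IL-2011 mouse 1 had the second highest bile duct sum (136 FPKM). Both mice of IL-2011 and of IL-4457 lay between 119 and 136 FPKM in that sum; their part in these calls was not tested.

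The line contrasts rest on few mice. Leaving out a mouse of a line with 2 leaves 1, which is then assumed to vary like the others. Without its mouse 1, IL-521 kept 0 calls, and 10 without mouse 2. IL-2146 had 7 or 8, IL-3348 1 or 2, IL-3438 1 each time, IL-3912 1 or 3, and IL-4457 2 or 3. In IL-2011 the lower calls were 1 without mouse 1 and 15 without mouse 2. In IL-2156 they were 4 without mouse 3 and 25 without mouse 1.

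Body weight and age were examined in the 29 lines, with the counts of line mates summed. No listed gene passed for weight in edgeR (2 of 40 at an unadjusted p under 0.05, beside 8.57% of all genes; 6 of 12782 genes, 0.0469%, passed), and the slopes had a median of -0.12 on the log2 scale per 10 g, with 32 of 40 below 0. For age none passed (3 of 40 at an unadjusted p under 0.05, beside 5.45%; 1 gene, 0.00782%, passed), with 34 of 40 slopes above 0. The median slope on age was 0.055 per week, and 0.025 without the mouse of IL-2126, with 31 of 40 above 0. Without that mouse 0 of 40 had an unadjusted p under 0.05 in edgeR, beside 470 of all 12832 genes. limma-trend on line means called 0 for both, with 6 of 40 at an unadjusted p under 0.05 for each, beside 7.28% of all genes for weight and 5.23% for age.

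Among mice of a line the weight slopes ran the other way, but this rested on the mice of 1 line, IL-2156, and most on its heavy mouse 1. In the fit of 47 mice with line as a factor, 38 of 40 slopes were above 0 with a median of 0.31 log2 units per 10 g, and 19 of 40 genes had an unadjusted p under 0.05, beside 8.27% of all genes. None passed the adjusted threshold in edgeR, where 12 genes of all (0.0785%) did. The smallest adjusted p was that of Fabp1, with a slope of 1.01 (SE 0.24, adjusted p = 0.128, edgeR); without IL-1052 and IL-2750, Acat1 passed (slope 0.76, SE 0.16, adjusted p = 0.0475), beside 0.171% of all genes. Line mates were mostly alike in weight, with a median range of 2.1 g, and IL-2156 had the widest range, 12.7 g. Its mice weighed 38, 27.7 and 25.3 g and had peroxisomal scores of 0.431, -0.61 and -1.03 and mitochondrial scores of 0.486, -1.3 and -1.73. Without the heavy mouse 1 the median slope was -0.10, and without the line -0.08. Without mouse 2 it was 0.27 and without mouse 3 0.26. The low scores were those of mice 2 and 3, which also had the raised Kupffer and leukocyte sums, and mouse 3 had the lowest hepatocyte sum. Kupffer sums above the 135 FPKM of mouse 3 were also found in the mouse of IL-557 (210) and mice 1 and 2 of IL-2680 (180 and 145). Their mitochondrial scores were 0.357, 0.843 and 0.125, and their peroxisomal scores -0.069, 0.315 and -0.455. The part of these markers in the slopes was not tested. The correlation of weight with the scores within lines was 0.425 and 0.422, and 0.075 and -0.026 without IL-2156.

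**Figure D5:**
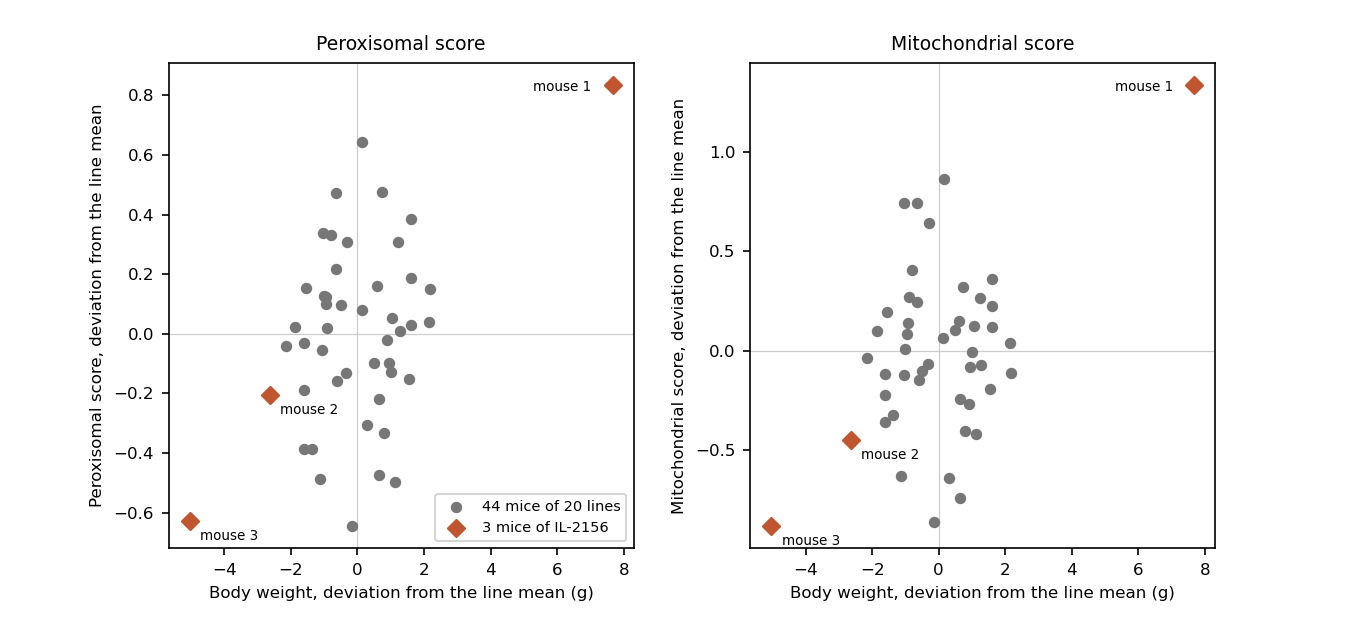
Deviation of the peroxisomal (left) and mitochondrial score (right) from the line mean against the deviation of body weight (g) in 47 mice of 21 lines, with the 3 mice of IL-2156 as diamonds. Mouse 1 of IL-2156 lies alone at the upper right; without that line the correlations are 0.075 and -0.026.

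Other genes of the pathway, taken from a list of 36 of which 35 were found, were read from the same fit. Of the 33 tested, 31 passed among lines in edgeR, beside 88.5% of all genes, and 30 kept traits had a median intraclass correlation of 0.582. Among the highest were Phyh, which starts the breakdown of phytanic acid (0.768, from 572 FPKM in IL-72 to 1734 in IL-3348), and Acox3, an oxidase of branched chains (0.728, from 4.34 in the mouse of IL-557 to 14.8 in that of IL-4032). Of 16 genes of the PPARα axis, all passed, beside the same 88.5%, with a median of 0.51 over 13 kept traits. The highest were Lpin1, a phosphatidate phosphatase and coactivator (0.861, from 2.54 FPKM in the mouse of IL-2693 to 175 in that of IL-4141), Angptl4, an inhibitor of lipoprotein lipase (0.715), and Cyp4a14, an omega-hydroxylase (0.705, from 0.085 in IL-1052 to 384 in the mouse of IL-1452). Ppara itself followed the line less (0.404), from 7.08 FPKM in IL-4457 to 41.1 in the mouse of IL-1452.

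Isoform shares, the percentage of a gene assigned to an isoform, were a separate readout of the same genes. The files gave 2 or more isoforms for 32 of the 40 genes, and 17 had an isoform that passed the rule on levels, with a median intraclass correlation of 0.47 and 7 above 0.5. For Eci2 the share of ENSMUST00000171229 was 24.1% and 25.3% in IL-219 and 48.1% and 45.2% in IL-519, with an intraclass correlation of 0.818. For Bdh1 the share of ENSMUST00000089759 was 54.6% and 64.1% in IL-2011 and 84.5% and 81.4% in IL-3912 (0.755). The mice of the extreme lines did not overlap in either gene. For Acaa1a, ENSMUST00000039784 made up 77.6% and 92.2% in IL-4052 and 99.2% in the mouse of IL-2126. Its intraclass correlation was 0.777 on van der Waerden scores and 0.487 on the percentages themselves. For Acox2, named after its values were seen, ENSMUST00000022271 made up 28.5% in the mouse of IL-2693 and 88.6% in that of IL-1141.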

How the data were processed

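Liver polyA RNA of 55 mice was sequenced in paired reads of 50 bases. The authors aligned them with Bowtie 2 to mouse transcripts (mm9, Ensembl 67) and quantified them with RSEM 1.2.18 at default parameters, which do not use the strand. The deposited files hold, per gene, expected counts, TPM (transcripts per M) and FPKM, and per isoform its percentage of the gene, all by the authors with RSEM; fragments shared by similar genes are divided by an estimate. Depth was 20.5 to 33.95 M fragments (median 27.7).

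Expected counts were rounded to whole numbers and tested with edgeR 4.0.16 (TMM, filterByExpr by line, quasi-likelihood F test, Benjamini-Hochberg over all genes tested, adjusted p under 0.05). DESeq2 1.42.0 and limma 3.58.1 were alternatives. Contrasts of a line used the same fit of 47 mice and share mice. Fits that leave out a mouse reuse the trended dispersion and gene set of the full fit. The standard error of a log2 difference is its size over the square root of F.

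Intraclass correlations used the one-way analysis of variance estimator on van der Waerden scores of FPKM rounded to bins (highest value over 200, at least 0.5 FPKM). Traits were kept with a highest FPKM of at least 2 and at least 12 levels. Scores and correlations used log2(FPKM + 1), which understates changes of low genes.

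Scripts were tested on simulated data. The listed genes, the other lists and the tests were chosen with earlier results of these data known. All 40 genes may be named; values of single mice are given for the 3 genes of highest and the 1 of lowest intraclass correlation in each group, the close copies and Hadha with Hadhb; 3 genes of each other list and 3 isoforms follow the same measure. 1 gene that this rule names is not reported here. Lines are named by the most and fewest calls. Promoter sequences came from RefSeq (GRCm38.p6), whose coordinates are not those of the files (mm9).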

Additional observations from a re-analysis of the deposited data

How the results depend on the processing

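The alternatives were another normalization, no filter on low counts, DESeq2 or limma, other units and pseudocounts, another placing of Acad11, Eci2 and Slc27a2, and leaving out mice or lines. Those without IL-2156, without IL-2126, without the mice of raised markers and with only the 21 lines of at least 2 mice were chosen after seeing the data. The listed genes called among lines numbered 36 to 39, and 34 to 40 when a mouse was left out. No paired analysis was possible because the mice of different lines share no replicate pairing: the numbers only name line mates.

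The count of genes higher in IL-3348 was 9 without the mice of raised markers (those of IL-2156, IL-3912 mouse 1 and IL-1052 mouse 2, while IL-785 was kept). The genes called for weight within lines numbered 1 without IL-1052 and IL-2750, and the median slope reversed to -0.083 without IL-2156. The median slope on weight between lines was -0.076 without age as a covariate. The correlation of the 2 scores between lines was 0.843 on TMM-normalized counts, 0.856 by Spearman, 0.837 adjusted for depth and the share of the top 20 genes, 0.859 without the 2 farthest lines and 0.930 over 21 lines. On TPM, TMM-normalized counts and adjusted values, the median pair between lines was 0.663, 0.501 and 0.468 for mitochondrial genes and 0.539, 0.386 and 0.359 across compartments. The cause of these shifts was not tested.

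With 1 mouse left out, the genes higher were 0 to 16 in IL-521, 7 to 14 in IL-2146, 1 to 8 in IL-3348, 1 to 7 in IL-3438 and 1 to 7 in IL-3912. The genes lower were 4 to 25 in IL-2156, 1 to 16 in IL-2011 and 2 to 13 in IL-4457. The median slope on weight was -0.147 to -0.055 between lines with 1 line left out (the latter without IL-2126) and -0.095 to 0.346 within lines. With 1 to 3 mice a line, the spread between line mates is estimated over all lines together.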
